A study of Mus musculus with 8 samples.

Results

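AP-1 is a family of transcription factors that bind DNA as pairs of proteins, and the mRNA of 9 of its genes was followed here in follicular and other CD4 T cells: Jun, Junb and Jund, Fos, Fosb, Fosl1 and Fosl2, and Batf3 and Atf3. They were taken as a named list and found by gene name among the 29924 gene names of the array. All 9 were on the array, and 6 of them were bright enough to be tested, against 15747 testable genes in all. Fosl2 was covered by 2 probes and every other gene by 1, and the brighter probe was used.

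The series profiled naïve CD4 T cells, TFH cells (follicular helper T cells, which help B cells in germinal centers), Treg cells (Foxp3+ regulatory T cells) and TFR cells (follicular regulatory T cells). The cells were sorted from peripheral lymph nodes (pLN) of mice immunized s.c. with KLH in Alum, at d12 and d25 p.i. Each cell type was hybridized once per day to a one-color Agilent array, giving 8 arrays, and a cell type on a given day has no replicate here. The series' design describes more than 1 independent experiment per day, and the arrays of any others were not analysed here. All mice, naïve cell donors included, were immunized B6.Cg-Foxp3<tm1Mal> animals, in which EGFP marks cells expressing Foxp3, with an age of 8 to 14 weeks. By the labels, the RNA input was 25 ng from a mixed-sex pool of 8 to 15 mice. The cells were gated as B220-negative CD4+ T cells and divided by EGFP, PD1 and GL7, with TFH cells positive for GL7 and TFR cells taken with or without it. Naïve cells were thus defined by the absence of EGFP, PD1 and GL7.

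AP-1 dimers pair a Jun protein with a Fos, ATF or BATF protein, or with another Jun protein, whereas Fos proteins do not form stable dimers with each other. Signals from the T cell receptor and CD28 reach these genes through MAP kinases, and many of them are immediate-early genes whose mRNA rises and decays quickly after a stimulus. In activated T cells AP-1 binds next to NFAT at cytokine genes, and BATF-containing dimers bind together with IRF4.

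Jun mRNA was low in both follicular cell types, and Fosl2 mRNA was lowest in TFH cells. Jun fell by 1.62 on the log2 scale from naïve to TFH cells and fell by 2.22 from Treg to TFR cells. Fosl2 fell by 1.47 from naïve to TFH cells, with a difference of 0.34 that did not pass the test between TFR and Treg cells. Levels of Fos and Fosb were highest in TFH cells on d12, but the 2 days differed so much that neither passed the test. Junb was higher in TFR than in TFH cells, which were on different slides on d25. Jund was bright and passed no test, and Fosl1, Batf3 and Atf3 were at or near background.

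The sequence upstream of the transcription start is shown for Jun and Fosl2, which carried the called differences between TFH and naïve cells, and for Fos, which is compared with Jun as its usual partner. The sequences are those of RefSeq on assembly GRCm38.p6 and give the 250 bases before the start, on the strand of the gene: Jun from chr4:95052223-95052472 (minus strand), Fosl2 from chr5:32136222-32136471 (plus strand) and Fos from chr12:85473640-85473889 (plus strand). Capitals mark matches to TGACATCA, TGACG and TATAAA.
Jun: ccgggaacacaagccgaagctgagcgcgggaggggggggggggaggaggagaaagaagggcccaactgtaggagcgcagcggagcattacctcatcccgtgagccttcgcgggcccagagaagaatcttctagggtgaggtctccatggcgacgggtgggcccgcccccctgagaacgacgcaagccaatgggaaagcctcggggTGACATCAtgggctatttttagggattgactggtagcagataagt
Fosl2: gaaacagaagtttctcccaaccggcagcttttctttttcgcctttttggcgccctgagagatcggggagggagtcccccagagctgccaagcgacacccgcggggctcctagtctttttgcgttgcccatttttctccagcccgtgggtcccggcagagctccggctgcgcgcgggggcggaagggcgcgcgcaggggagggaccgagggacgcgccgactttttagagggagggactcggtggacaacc
Fos: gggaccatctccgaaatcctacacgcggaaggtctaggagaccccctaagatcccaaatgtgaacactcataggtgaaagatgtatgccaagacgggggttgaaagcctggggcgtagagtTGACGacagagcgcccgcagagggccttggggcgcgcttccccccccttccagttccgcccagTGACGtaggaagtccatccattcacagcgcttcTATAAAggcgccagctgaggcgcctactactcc
The letters of the consensus AP-1 site, TGANTCA, and of the palindromic cAMP response element, TGACGTCA, were searched on both strands of windows of 300 bases (250 before and 50 after the start). A window was found for 8 of the 9 genes, the exception being Fosl1. Neither motif occurred in any of the 8, and they occurred in 7.81% and 1.79% of 32851 windows. TGACATCA, a variant AP-1 site, was present in 1 of the 8 windows, that of Jun, with its first base at -45 from the start, and in 3.62% of all windows. TGACG, which is also part of TGACGTCA, was present in 4 (Fos at -129 and -66, Fosb, Junb and Atf3) and in 20.8% of all windows. Fosl2 matched none of these motifs. These matches describe the letters only, and binding was not measured.

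Levels are given in relative units (RU) after quantile normalization, scaling of the 75th percentile to 1500 and a floor of 20. The level of one probe cannot be set against that of another, so values are compared between cell types for each gene. Before normalization the 75th percentile lay between 483.0 and 878.3, and 18254 to 19867 of 39429 probes per array were well above background. All arrays of d12 were on 1 slide, whereas on d25 naïve and TFH cells shared a slide and Treg and TFR cells another. Day and slide cannot be told apart, but the TFH versus naïve and TFR versus Treg differences of each day lie within a slide. A difference between a Foxp3+ and a Foxp3-negative cell type lies within a slide on d12 only. On d25 it crosses slides, and lineage and slide cannot be told apart. The 2 arrays of a cell type differ in day, and the model takes out the day shift that all cell types share. The p-values therefore measure how the difference between the days varied among the 4 cell types, pooled over them. Nothing gives a replicate of the same day. The summed level of 5 follicular genes was 654891 to 866012 RU in TFH cells against 24466 to 25278 RU in naïve cells. It was 239317 to 303464 RU in TFR cells against 45979 to 52358 RU in Treg cells. These genes include Pdcd1, which encodes PD1 of the sort gate. Among genes of Foxp3+ cells, Foxp3, Il2ra and Lrrc32 were far lower in TFH than in Treg cells. Ikzf2 and Ctla4 were not called between TFH and Treg cells, with differences of 0.02 and -0.18. The summed level of 7 B cell genes was 1689 RU in TFH cells on d12 and 12743 RU on d25, against 4455 to 8716 RU on the other arrays, with Pax5 at the floor on all 8.

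**Figure D1:**
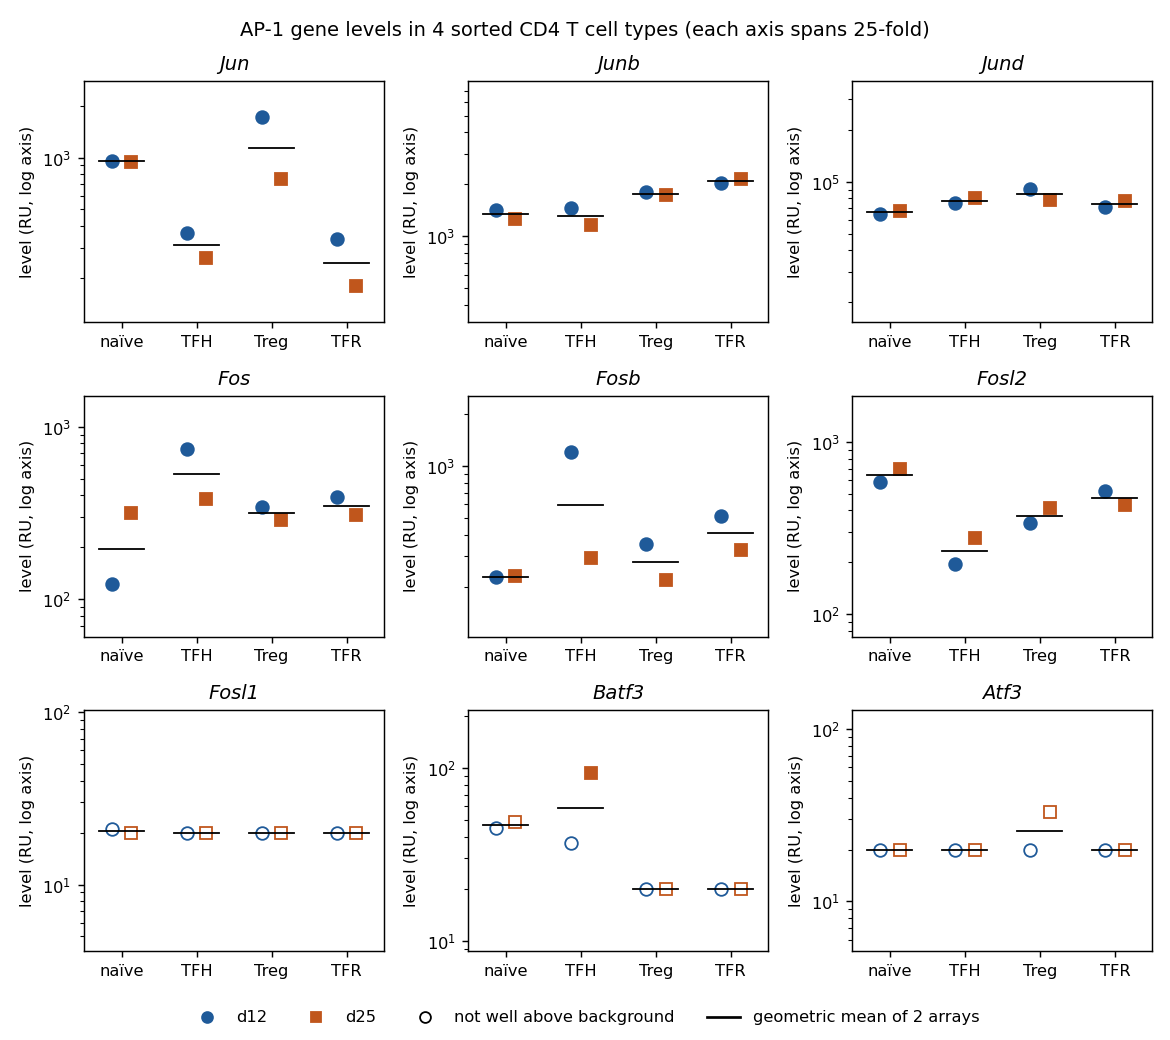
Level of each of the 9 AP-1 genes in RU (log axis, each panel spanning 25-fold) in the 4 cell types, with circles for d12, squares for d25, open symbols for probes not well above background and lines for the geometric mean of the 2 arrays. Jun was at 179 to 364 RU on the 4 follicular arrays and at 753 to 1725 RU on the other 4, and the d12 TFH array stands highest for Fos and Fosb.

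Among the Jun family, Jun (probe at chr4:94716928-94716987, minus strand, build NCBI37) encodes c-Jun, the main partner of the Fos proteins. Its level was 953 RU on d12 and 945 RU on d25 in naïve cells, and 364 RU and 263 RU in TFH cells. It was 1725 RU and 753 RU in Treg cells, and 335 RU and 179 RU in TFR cells. The 2 follicular cell types lay below both others without overlap. In sorted bulk RNA, fewer cells that express a gene and less mRNA per cell cannot be told apart. From naïve to TFH cells Jun fell by 1.62 ± 0.30 on the log2 scale (SE, 2 arrays per cell type), or 3.07-fold, with an adjusted p of 0.011 (limma with Benjamini-Hochberg adjustment). Within the slides the difference was -1.39 on d12 and -1.85 on d25. From Treg to TFR cells it fell by 2.22 ± 0.30, or 4.66-fold (limma, adjusted p = 0.00587), with -2.36 on d12 and -2.07 on d25. The difference between both changes was -0.60, with a 95% interval from -1.68 to 0.48, and did not pass the test (limma, adjusted p = 0.441). The call for TFH cells was lost without the TFH array of d12 (adjusted p = 0.0628) and without a filter on dim probes (adjusted p = 0.0688), and the call for TFR cells when the d25 array of that cell type was left out (adjusted p = 0.054).

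Across the lineages, Jun was also lower in TFR than in naïve cells by 1.96 ± 0.30 (limma, adjusted p = 0.00558) and lower in TFH than in Treg cells, with a difference of -1.88 ± 0.30 (limma, adjusted p = 0.0081), a call lost without the filter on dim probes (adjusted p = 0.0586). Treg and naïve cells overlapped, with a difference of 0.26 and an interval from -0.50 to 1.03. TFR and TFH cells differed by -0.34, with an interval from -1.10 to 0.43, and also overlapped. The order of the means was therefore Treg, naïve, TFH and TFR cells, in which only the step from naïve to TFH cells passed the test. Jun had the widest range of the 9 genes, 9.65-fold between the Treg array of d12 and the TFR array of d25.

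Junb (chr8:87501881-87501940, minus strand, NCBI37), which encodes a Jun protein that pairs with BATF in T cells, had levels of 1428 RU and 1267 RU in naïve cells and 1465 RU and 1168 RU in TFH cells on d12 and d25. In Treg cells it had 1803 RU and 1724 RU, and in TFR cells 2040 RU and 2162 RU. Both Foxp3+ cell types lay above both others on each day, but on d25 they were also on another slide. TFR cells were higher than TFH cells by 0.68 ± 0.12, or 1.61-fold (limma, adjusted p = 0.0213), and higher than naïve cells by 0.64 ± 0.12 (limma, adjusted p = 0.0113). The TFR versus TFH difference was 0.48 on d12, within a slide, and 0.89 on d25, between slides. TFH cells were lower than Treg cells, with a difference of -0.43 ± 0.12 (limma, adjusted p = 0.0461). This call was lost in 11 of 20 alternatives, including slide as a block in place of day (-0.30, adjusted p = 0.164) and leaving out any array except the TFH array of d12, with adjusted p up to 0.201. Between TFH and naïve cells the difference was -0.04, with an interval from -0.36 to 0.28, and between TFR and Treg cells it was 0.25, with an interval from -0.07 to 0.57. The TFR versus TFH call was lost with slide as a block (adjusted p = 0.086) and without either TFR array, either Treg array or the TFH array of d25 (adjusted p up to 0.121), as well as without a filter on dim probes (adjusted p = 0.0794). The TFR versus naïve call was lost without either naïve array or the TFR array of d25 (adjusted p up to 0.071).

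Jund (chr8:73224436-73224495, plus strand, NCBI37) encodes the Jun protein that resting cells contain. It lay between 65151 RU in naïve cells on d12 and 90216 RU in Treg cells on d12, a range of 1.38-fold, and was the steadiest of the 6 tested genes. Its levels in TFH cells were 74843 RU and 80478 RU, and in TFR cells 71643 RU and 77015 RU. No comparison called Jund. The difference was 0.23 between TFH and naïve cells, with an interval from -0.06 to 0.51, and -0.18 between TFR and Treg cells, with an interval from -0.47 to 0.11.

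Of the Fos family, Fosl2 (chr5:32460076-32460135, plus strand, NCBI37) encodes Fra-2, a Fos protein without the transactivation domain of c-Fos. Its level was 587 RU on d12 and 700 RU on d25 in naïve cells, and 196 RU and 275 RU in TFH cells. In Treg cells it was 336 RU and 413 RU, and in TFR cells 519 RU and 428 RU. Both TFH arrays lay below the other 6, and both naïve arrays lay above them. TFH cells were lower than naïve cells by 1.47 ± 0.20, or 2.76-fold (limma, adjusted p = 0.00435), with -1.58 on d12 and -1.35 on d25. This call was kept in all 19 alternatives that could be run for Fosl2. TFR cells exceeded TFH cells by 1.02 ± 0.20, or 2.03-fold (limma, adjusted p = 0.0255), with 1.41 on d12 and 0.64 on d25, and 10 of the 19 alternatives lost the call. TFH cells were lower than Treg cells, with a difference of -0.68 ± 0.20 (limma, adjusted p = 0.0475), a call that 12 of the 19 alternatives lost. Treg and TFR cells differed from naïve cells by -0.78 and -0.44 and did not pass (limma, adjusted p = 0.0787 and 0.118). Without the d12 TFR array both passed, with -0.78 and -0.76 (limma, adjusted p = 0.0492 and 0.0314), and without the d25 TFR array the first did (adjusted p = 0.0492).

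The follicular change of Fosl2 differed between the Foxp3+ and the Foxp3-negative lineage. The TFR versus Treg difference was 0.34, with an interval from -0.17 to 0.85, and exceeded the TFH versus naïve difference by 1.80 ± 0.28 (limma interaction, adjusted p = 0.0269). It was the 1 gene of the 6 called in this test, which called 8.52% of all tested genes, 4.05% as higher. The call was lost in 9 of 19 alternatives, including slide as a block (adjusted p = 0.0509) and leaving out any array except the TFH and TFR arrays of d25, with adjusted p up to 0.129. The second Fosl2 probe (chr5:32455088-32455147) gave 20 to 42 RU, stayed near background throughout, and could not serve as a check.

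**Figure D2:**
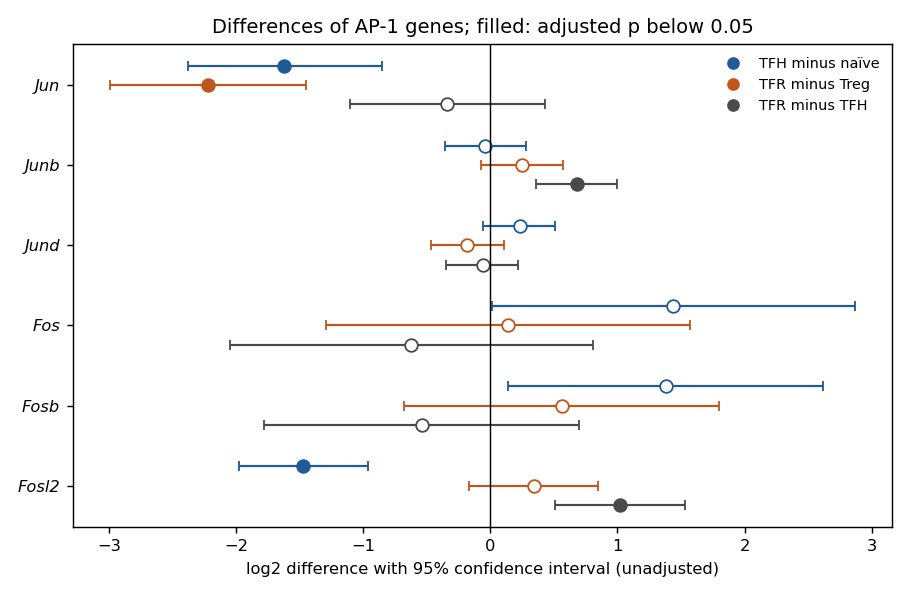
Log2 difference of the 6 tested AP-1 genes between TFH and naïve, TFR and Treg, and TFR and TFH cells, with bars for the unadjusted 95% confidence interval of the limma fit over 8 arrays and filled points for an adjusted p below 0.05. Jun lies left of 0 in both follicular changes, whereas Fosl2 does so between TFH and naïve cells and lies at 0.34 between TFR and Treg cells.

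Fos (chr12:86817900-86817959, plus strand, NCBI37) encodes c-Fos, the immediate-early partner of c-Jun. Its level was 123 RU on d12 and 315 RU on d25 in naïve cells, and 747 RU and 380 RU in TFH cells. Treg cells had 342 RU and 289 RU, and TFR cells 389 RU and 309 RU. The d12 TFH array was the highest of the 8 and the d12 naïve array the lowest, and the other 6 lay between 289 RU and 389 RU. TFH cells differed from naïve cells by 1.44 ± 0.55, with an interval from 0.01 to 2.87, which did not pass the test (limma, adjusted p = 0.089). The difference was 2.60 on d12 and 0.27 on d25. The estimate rested on single arrays. Without the d25 naïve array it was 2.38 and passed (limma, adjusted p = 0.0115), without the d12 naïve array it was 0.50 (adjusted p = 0.254), and without the d12 TFH array 0.82 (adjusted p = 0.368). The TFR versus naïve difference of 0.82 (limma, adjusted p = 0.264) likewise passed without the d25 naïve array, at 1.76 (adjusted p = 0.0191). Between TFR and Treg cells it was 0.14, with an interval from -1.29 to 1.57.

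Fosb (chr7:19888168-19888227, minus strand, NCBI37) encodes FosB, another immediate-early Fos protein. Its level was 228 RU and 230 RU in naïve cells on d12 and d25, and 1201 RU and 295 RU in TFH cells. Treg cells had 352 RU and 219 RU, and TFR cells 516 RU and 326 RU. The d12 TFH array was thus far above the other 7. Among these, both TFR arrays lay above both naïve arrays, whereas Treg cells overlapped with either. TFH and naïve cells differed by 1.38 ± 0.48, with an interval from 0.14 to 2.62 (limma, adjusted p = 0.0692), or 2.40 on d12 and 0.36 on d25. Fosb passed the test without the d25 TFH array (difference 2.17, limma adjusted p = 0.0114), with 75th percentile scaling alone (adjusted p = 0.0487) and with an intensity trend in eBayes (adjusted p = 0.0428). Without the d12 TFH array the difference was 0.59 (adjusted p = 0.181), and without the d12 naïve array 0.81 (adjusted p = 0.305). TFR cells differed from naïve cells by 0.84 (limma, adjusted p = 0.197), which passed without either TFH array (0.84, adjusted p = 0.0388). TFH cells differed from Treg cells by 1.10 (limma, adjusted p = 0.13), which passed without the d25 TFH array (1.89, adjusted p = 0.0187). TFR and Treg cells differed by 0.56, with an interval from -0.68 to 1.80.

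Between the 2 TFH arrays Fosb was 4.07-fold and Fos 1.96-fold higher on d12. A difference at least this large was found for 1.25% and 8.31% of the 15747 tested genes in TFH cells. Since a gene has 1 array per day and cell type, this is a difference between 2 arrays and has no test. Of genes known to rise when tissue is dissociated and cells are sorted, 13 were tested (16 listed). In TFH cells 3 of them were higher on d12 and 10 on d25. The other cell types leaned the same way, with 3 and 10 in naïve, 2 and 11 in Treg, and 4 and 9 in TFR cells. Zfp36 encodes an RNA-binding protein that shortens mRNA lifetime. In TFH cells it was the 1 of these genes at least 2-fold higher on d12, with 587 RU against 255 RU, a larger ratio than that of Fos. The B cell genes had their higher sum on d25. The part of either in the levels of Fos and Fosb was not tested. Jun was higher on d12 as well in Treg cells (2.29-fold) and TFR cells (1.87-fold), whereas in naïve cells it was within 1.01-fold. Over all cell types, no gene of the 6 was called between d25 and d12 by limma, and 0.0699% of all genes were. At an unadjusted p below 0.05 Jun alone of the 6 differed, by -0.65, with an interval from -1.19 to -0.10 (limma, adjusted p = 0.135).

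**Figure D3:**
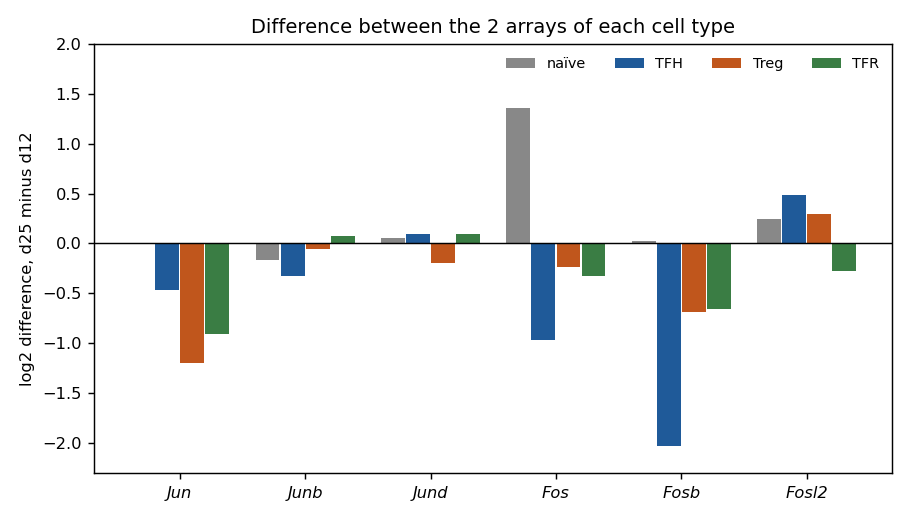
Log2 difference between the d25 and the d12 array of each cell type for the 6 tested AP-1 genes, with 1 bar per cell type and no replicate behind a bar. Fosb in TFH cells (-2.03), Fos in naïve cells (1.36) and Jun in Treg cells (-1.20) changed most, while Junb and Jund stayed within 0.33 in every cell type.

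Fosl1 (chr19:5455496-5455555), which encodes Fra-1, was at 20 to 21 RU, with no array well above background. Atf3 (chr1:192994547-192994606), a stress-induced ATF factor, was at 33 RU in Treg cells on d25 and at the floor of 20 RU on the other 7 arrays, and was not well above background either. Batf3 (chr1:192932528-192932587), a BATF factor known for its role in cross-presenting dendritic cells, was at 45 RU and 49 RU in naïve cells, 37 RU and 94 RU in TFH cells, and 20 RU in all Treg and TFR arrays. Only the TFH array of d25 was well above background for Batf3. That array also had the highest B cell sum. Of 5 dendritic cell genes, Xcr1 and Clec9a, which mark Batf3-dependent dendritic cells, were at the floor on all 8 arrays. Flt3, a growth factor receptor of dendritic cell precursors, was well above background on 6 arrays, with 216 RU and 108 RU in naïve cells, 69 RU and 181 RU in TFH cells, and 48 to 69 RU in Treg and TFR cells. Zbtb46 was above background on 2 arrays and Itgax on 1, at up to 84 RU and 90 RU. The summed level of the 5 was 271 to 405 RU in naïve, 179 to 277 RU in TFH, 170 to 192 RU in Treg and 161 to 193 RU in TFR cells. The part of B cells or dendritic cells in the Batf3 signal was not tested. None of these 3 genes was tested, and no fold is given.

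Counted over the 6 tested genes, 2 were called between TFH and naïve cells, both lower, while limma called 46.7% of all tested genes, 25.7% as lower. Between TFR and Treg cells 1 was called, as lower, against 39.8% of all tested genes, 21.0% lower. TFR against TFH cells gave 2 higher, against 22.2% of all, 11.7% higher. TFH against Treg cells gave 3 lower, against 39.9% of all, 21.1% lower. TFR against naïve cells gave 1 higher and 1 lower, against 53.2% of all, 23.4% higher and 29.8% lower. Treg against naïve cells gave 0, against 9.89% of all. In the last comparison 3 of the 6 (Fosl2, Junb and Jund) had an unadjusted p below 0.05. The median difference of the 6 was 0.10 between TFH and naïve cells and 0.20 between TFR and Treg cells, and that of all tested genes was -0.071 and -0.077. The first 2 comparisons share no array, the others reuse theirs, and with 6 genes the shares are too coarse to set the AP-1 genes apart from the rest of the array.

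Over the 8 arrays Fos and Fosb varied together (Pearson r = 0.79), and Fosl2 varied against both (r = -0.70 and -0.68), as a description over 8 arrays of which 2 are of each cell type. Among 5854 genes that were well above background and spanned at least 1 log2 unit, the closest to Jun were Hist3h2bb-ps (r = 0.975), Gclc (0.973) and Dtx1 (0.971). Closest to Fosl2 were 9930014A18Rik (0.97), Rasa4 (0.961) and Lrrc23 (0.949). Fosb was followed most closely by Pnldc1 (0.991), 1110059G10Rik (0.971) and AW061147 (0.961), and Fos by Soat1 (0.891), Tbx6 (0.868) and Ptpn1 (0.863).

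Some genes of partners or relatives of these proteins showed larger differences. Of 11 tested ATF, BATF, JDP, MAF and BACH genes (12 listed), 4 rose and 3 fell from naïve to TFH cells, and 4 rose and 5 fell from Treg to TFR cells. The median difference was 0.10 and -0.30. Of all tested genes limma called 46.7% and 39.8% in these comparisons, against which the counts of this and the following lists are to be read. Jdp2, which encodes a partner of c-Jun that represses AP-1 targets, had 139 RU and 120 RU in naïve cells and 12389 RU and 13511 RU in TFH cells. It rose by 6.65 ± 0.13 (limma, adjusted p = 7.91e-05), and by 4.10 ± 0.13 from Treg (240 RU and 208 RU) to TFR cells (3703 RU and 3952 RU; limma, adjusted p = 0.000366). Maf, which encodes c-Maf, a factor of IL4 and IL21 expression, rose by 5.14 ± 0.25 from naïve to TFH cells (limma, adjusted p = 0.000268). From Treg to TFR cells Maf rose by 2.08 ± 0.25 (limma, adjusted p = 0.00449). Batf, the partner of the Jun proteins at IRF4 sites, rose by 2.12 ± 0.11 from naïve to TFH cells (limma, adjusted p = 0.000296). It rose by 2.11 ± 0.11 from Treg to TFR cells (limma, adjusted p = 0.000658). Its level was 65281 RU and 68508 RU in TFR cells against 16846 RU and 14225 RU in Treg cells. The 2 cell types of each pair did not overlap for any of these 3 genes.

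**Figure D4:**
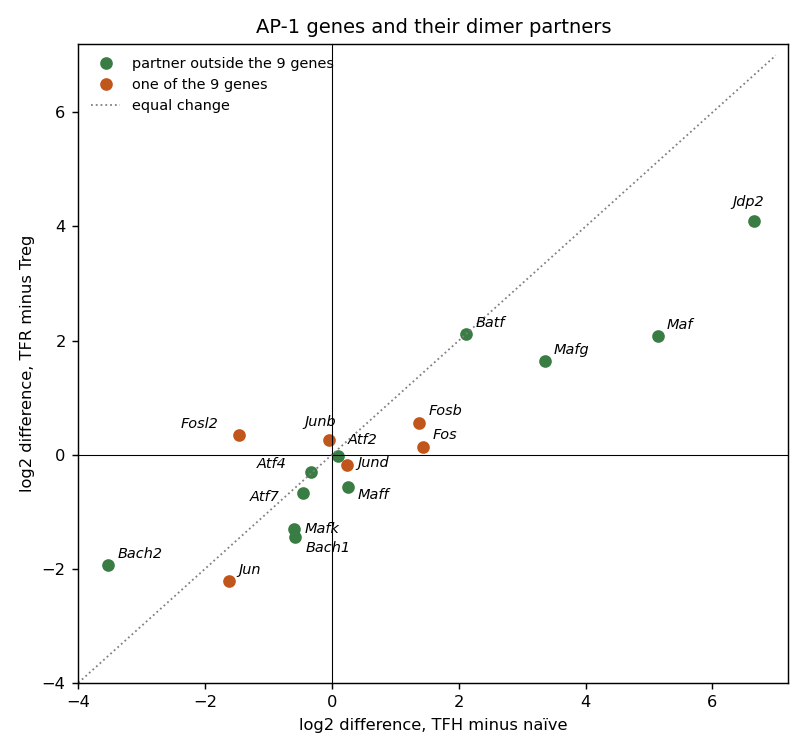
Log2 difference between TFH and naïve cells (horizontal axis) and between TFR and Treg cells (vertical axis) for the 6 tested AP-1 genes and 11 genes of partners or relatives, 1 point per gene, with a dotted line of equal change. Jdp2 (6.65 and 4.10) and Maf lie far to the right, Jun lies low on both axes and Fosl2 is low on the horizontal axis only.

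Among the kinases upstream, 1 of 11 tested MAP kinase and MAP kinase kinase genes rose and 2 fell from naïve to TFH cells, and 1 rose and 1 fell from Treg to TFR cells. Map2k3, which activates p38, rose by 1.35 ± 0.18 in TFH cells (limma, adjusted p = 0.00444) and by 1.43 ± 0.18 in TFR cells (limma, adjusted p = 0.00527). Mapk11, a p38 kinase, fell by 0.79 ± 0.09 from naïve to TFH cells (limma, adjusted p = 0.0023) and fell by 0.61 ± 0.09 from Treg to TFR cells (limma, adjusted p = 0.00687). Another list held factors that bind the serum response and cAMP response elements of the Fos promoter, and the MADS-box factors Mef2a and Mef2d. Of its 9 genes, 1 rose and 3 fell in TFH cells, and 2 rose and 2 fell in TFR cells. Crem, which encodes activators and repressors at cAMP response elements, rose by 1.69 ± 0.19 from Treg to TFR cells (limma, adjusted p = 0.00389). Elk4, a cofactor of serum response factor, fell by 0.95 ± 0.14 in the same comparison (limma, adjusted p = 0.00705). From naïve to TFH cells Elk4 fell by 0.49 ± 0.14 (limma, adjusted p = 0.0367), and Crem, at 0.59 ± 0.19, did not pass (limma, adjusted p = 0.0572). In TFH cells Mef2d, a MADS-box factor, fell by 0.61 ± 0.09 (limma, adjusted p = 0.00615) and Elk3, another cofactor of this kind, rose by 0.56 ± 0.08 (limma, adjusted p = 0.00535). Between TFR and Treg cells Mef2d differed by -0.69 ± 0.09 and Elk3 by 0.35 ± 0.08 (limma, adjusted p = 0.00569 and 0.0261). The listed ubiquitin ligases of Jun and Fos proteins were Itch, Fbxw7 and Rfwd2 (also named Cop1), and all 3 were on the array. Itch fell by 0.33 ± 0.09 from Treg to TFR cells (limma, adjusted p = 0.0409), and Fbxw7 and Rfwd2 passed neither test, with differences between -0.29 and 0.18.

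Of 13 listed cytokine and surface genes with known AP-1 sites, 6 were well above background on all 8 arrays. Of these 6, 4 rose and 0 fell from naïve to TFH cells, and 2 rose and 1 fell from Treg to TFR cells. Another 4 (Il13, Csf2, Ccnd1 and Plaur) were above background on some arrays only, so that their direction was tied to the cell types through which they became testable, and the remaining 3 were not tested. Il4 rose by 6.86 ± 0.41 in TFH cells (limma, adjusted p = 0.000441) and by 5.21 ± 0.41 in TFR cells (limma, adjusted p = 0.0017). Its level was 68135 RU and 74917 RU in TFH cells and 12569 RU and 12557 RU in TFR cells. Il13, not well above background in Treg cells, was at least 7.49-fold higher in TFR cells. Plaur, the urokinase receptor, was at least 8.56-fold lower in TFH than in naïve cells, 1 of the 2 TFH arrays being above background. These bounds use, for each dim array, the lowest signal that was well above background where the probe lay below it.

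The other genes known to respond to dissociation and sorting moved in both directions. Of the 12 that were well above background on all arrays, 5 rose and 4 fell from naïve to TFH cells, and 4 rose and 4 fell from Treg to TFR cells. Ier3 was above background on 4 arrays, those of the follicular cell types, so that its direction was tied to the cell types through which it became testable. Egr2, a zinc-finger factor induced by T cell receptor signals, rose by 2.52 ± 0.11 in TFH cells (limma, adjusted p = 0.000233), and Dusp1, a phosphatase of MAP kinases, rose by 1.70 ± 0.13 (limma, adjusted p = 0.000867). From Treg to TFR cells Egr2 rose by 1.31 ± 0.11 and Dusp1 by 1.18 ± 0.13 (limma, adjusted p = 0.0021 and 0.00381). Klf6 fell by 1.48 ± 0.16 from Treg to TFR cells (limma, adjusted p = 0.00368) and by 1.61 ± 0.16 from naïve to TFH cells (limma, adjusted p = 0.00186). By the bound described above, Ier3 was at least 2.43-fold higher in TFR than in Treg cells. Their part in the differences of Jun and Fosl2 was not tested.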

How the data were processed

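The 8 arrays analysed here, 1 per cell type and day, carry 4 spots for each of 39429 probes. The authors scanned them and extracted spot intensities with Agilent Feature Extraction 10.7.3.1, and deposited background-subtracted spot intensities, quality flags and a table of normalized intensities, made by the geometric mean over spots, quantile normalization, scaling (75th percentile 1500) and a minimum of 20. The spots were processed in the same way for the levels. Spots were left out if flagged, outside a multiple of the interquartile range of their probe, or with a pixel coefficient of variation above 0.5, and 86.45% to 89.18% were retained. The resulting log2 values had a Pearson r of 0.9994 with the authors' table on each array, with a median offset of 0 and up to 0.39 for the 6 tested AP-1 genes.

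The brightest probe stood for a gene. Tested were 15747 of 29924 genes, those well above background (flagged so on over 50% of the retained spots) in 1 or more cell types on both days, with a value on all 8 arrays. Cell types were compared with limma 3.58.1 in R 4.3.3 (lmFit and eBayes). The model had additive terms for day and cell type, which leaves 3 residual degrees of freedom plus a prior of 1.91, and with Benjamini-Hochberg adjustment over all tested genes. Day acted as the block that pairs the arrays, since all 4 cell types were sorted at each day. A gene was called at an adjusted p below 0.05. The ANOVA of the study's methods needs replicates per cell type and day, so it was not used. On simulated data of the TFH versus naïve comparison with 15747 genes, 77 of 100 genes changed by 1.5 on the log2 scale and 95 of 100 changed by 3 were called, with 15 false calls. No other gene was changed there, and the noise was independent, without effects of day, slide or normalization. In the data 46.7% of tested genes were called, so these figures do not give the recovery in the real comparison.

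The 9 genes, the gene lists and the markers were chosen with earlier results of these data known. Of each list, the 2 called genes with the largest absolute difference in TFH versus naïve and in TFR versus Treg cells were named, and all genes of lists of 5 or fewer. Some listed genes are not reported here and were left out of the lists' counts. The 3 genes most like an AP-1 gene were those with the highest Pearson r. Motifs were counted in RefSeq promoter windows of GRCm38.p6 with Python 3.11.15 and pandas 2.3.3. Probe positions are those of the files in NCBI37, an annotation of which was not used here, so that exon or UTR is not given. Alternatives covered background correction, normalization, spots, floor, filter, probe, model and each array left out. Cells from Peyer's patches were not analysed here.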

Additional observations from a re-analysis of the deposited data

Results flagged for a closer look

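Fosl2 was singled out because its follicular change differed between the 2 lineages. The TFR versus Treg difference exceeded the TFH versus naïve difference by 1.80 on the log2 scale (limma interaction, adjusted p = 0.0269). It was 2.21 on d12 and 1.40 on d25, the same arrays that gave the call, so this agreement adds no further test. The call was lost in 9 of 19 alternatives, including slide as a block (limma, adjusted p = 0.0509).

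Jund was singled out because it was higher in TFH than in naïve cells (0.23), whereas the TFR level was below the Treg level (-0.18), on both days. Neither difference passed the test (limma, adjusted p = 0.157 and 0.247). On d12 and d25 the first difference was 0.20 and 0.25, and the second was -0.33 and -0.03, the last being close to 0. The test of the difference between both changes, -0.41 with an interval from -0.81 to 0.00, did not pass (limma, adjusted p = 0.196).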

How the results depend on the processing

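Under 20 alternatives, 940 values of the 48 differences (6 genes in 8 comparisons) were computed. Of these, 873 kept their side of the threshold, 56 lost a call, 11 gained one, and no called value changed sign. Many of these values could not differ from the main ones. Genes other than Fosl2 have 1 probe, so the second probe and the mean over probes gave the main difference again. Leaving out an array of a cell type outside a comparison also kept its difference. There only the spread or the adjustment over all genes could change a call. For 32 of the 48 differences every alternative was on the same side. The second probe of Fosl2 was not testable, which leaves 19 alternatives for that gene. The number of AP-1 genes called depended on the setting. For the TFH versus naïve comparison, main value 2, it was 1 without a filter on dim probes, 1 with the second brightest probe, and 1 to 3 with an array left out. For TFH versus Treg, main value 3, it was 0 without the filter, 1 with the second probe, 1 without the day term and 1 with slide as a block, and 1 to 2 with an array left out. For TFR versus TFH, main value 2, it was 0 without the filter, 1 with the second probe, 1 with the mean over probes, 0 with slide as a block, and 0 to 1 with an array left out. The interaction, main value 1, fell to 0 under those 4 settings and lay at 0 to 1 with an array left out. With an array left out, TFR versus Treg (main value 1) lay at 0 to 1, TFR versus naïve (main value 2) at 1 to 3, and Treg versus naïve (main value 0) at 0 to 1. Without the filter more genes are tested, and with the second probe Fosl2 is not tested. The cause of the other changes was not tested.

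Without the day term, that is without the replicate block pairing the arrays of a day, 5525 genes in place of 7348 were called between TFH and naïve cells. This removed the calls of Fosl2 (adjusted p = 0.0653) and Junb (adjusted p = 0.0761) between TFH and Treg cells by limma and no other call of the 6 genes. Across all genes, the count of calls moved by over 1.5 times in several settings, for TFR versus TFH from 3493 to 1645 without the filter and to 1368 with slide as a block. With an array left out, it fell to as few as 950 for TFR versus TFH, from 6261 to 2524 for TFR versus Treg, from 7348 to 4323 for TFH versus naïve, and from 1341 to 303 for the interaction. The shares of all genes given beside the AP-1 counts rest on all 8 arrays. Between d25 and d12 it moved from 11 to 1141 with an intensity trend, to 897 with normexp correction and to 856 with probes above background on all arrays. With 2 arrays per cell type, small differences cannot be resolved, and the 3 genes near background have no usable level.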
